A study of Mus musculus with 6 samples.

Results

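The CD2 and SLAM family receptors are cell-surface proteins of leukocytes, and 7 of their genes were examined here: Cd2, Cd48, Cd84, Ly9, Slamf1, Slamf6 and Slamf7. They were taken by name from 21887 protein-coding genes of the RefSeq table for GRCm38.p6. The rule uses no measured value, but the family was chosen with earlier results of these data known. For each gene, the H3K4me3 regions overlapping the gene body plus 5 kb on either side were collected. This gave 23 of 46565 regions in the Atg5-/- list and 10 of 48546 regions in the wild-type list. The first library came from CD8+ tumour-infiltrating lymphocytes of Atg5-/- mice, made by Cre-mediated deletion of Atg5, and the second from the same cell type of wild-type mice. Both had the C57BL/6 background and e0771 tumours, a mouse mammary tumour line. The labels give neither the Cre driver, the age of the mice, the treatment nor the number of animals per library. H3K4me3, a histone mark of active gene starts, was measured by immunoprecipitation and sequencing of nuclease-digested chromatin, with 1 library per genotype, so no difference below has a replicate check and no test between genotypes was possible. Of the 6 samples in the series, those for H3K27me3 and input were not used here. Whether the submitters used input to call the regions is not stated.

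CD2 is an adhesion and costimulatory receptor of T cells and natural killer cells, and in mice its ligand is CD48, a lipid-anchored protein found on most leukocytes. The SLAM receptors SLAMF1, CD84, SLAMF6, LY9 and SLAMF7 mostly bind a second copy of themselves on a neighbouring cell. The tails of most of them carry tyrosine motifs that recruit the small adaptor SAP, encoded by Sh2d1a, which in turn binds the kinase FYN, whereas SLAMF7 signals through the related adaptor EAT-2. In CD8 T cells SLAMF6 is also used as a surface marker of stem-like exhausted cells.

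The 2 lists were of like size, with 73.1 Mb covered in the Atg5-/- list and 71.3 Mb in the wild-type list. Their sequencing depth is not stated. The markers of T cells differed strongly between the libraries, which both carry the label of CD8+ lymphocytes. Of 11 T cell markers in the gene table, 11 had a region in the Atg5-/- list and 9 in the wild-type list, and 11 had at least 2 times the covered length in the Atg5-/- list. Their summed covered length was 136893 bp in the Atg5-/- list, from 5228 to 30803 bp per gene, and 19762 bp in the wild-type list, from 0 to 8120 bp per gene. The windows of Cd3d and Cd3g overlap, so covered bases they share were counted for both genes in these sums. Cd8a and Cd3e, which define the labelled cells, had 0 bp in the wild-type list. The 10 macrophage and granulocyte markers had regions in both lists and summed to 34876 bp in the Atg5-/- list, from 343 to 8213 bp per gene, and 40131 bp in the wild-type list, from 621 to 8440 bp. The 8 B cell markers summed to 24103 bp in the Atg5-/- list, from 0 to 6971 bp, and 17483 bp in the wild-type list, from 0 to 4751 bp, and Ms4a1 was at 0 bp in both. The 6 natural killer markers summed to 21507 bp in the Atg5-/- list, from 0 to 11429 bp, and 3783 bp in the wild-type list, from 0 to 3052 bp. That difference lay in Klrk1 (11429 bp in the Atg5-/- list and 0 bp in the wild-type list) and Klrd1 (7282 bp in the Atg5-/- list and 362 bp in the wild-type list). Klra4 was shorter in the Atg5-/- list (2271 bp, against 3052 bp in the wild-type list), and Ncr1 and Klra8 were at 0 bp in both. Epithelial and tumour markers summed to 21889 bp in the Atg5-/- list and 18550 bp in the wild-type list. Endothelial and fibroblast markers summed to 29299 bp in the Atg5-/- list and 39470 bp in the wild-type list. In bulk chromatin, fewer cells of a type and less of the mark per cell cannot be told apart. Several of the 7 receptor genes are also used by B cells, natural killer cells and macrophages. The part of these marker differences in the results that follow was not tested. Atg5 itself was covered over 4257 bp in the Atg5-/- list and 2926 bp in the wild-type list, and since the labels do not give the deleted part, this checks nothing.

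The CD2 and SLAM receptor genes carried more H3K4me3 coverage in the Atg5-/- list. The covered length means the bp under regions within the window of gene body plus 5 kb. It was longer in the Atg5-/- list for 7 of 7 genes, where 35.1% of all protein-coding genes were longer. That share includes genes with no coverage in either list. Of the 16415 genes with coverage in either list, 7672 were longer and 8728 shorter in the Atg5-/- list. The 7 genes had between 2816 and 15090 bp in the Atg5-/- list, with a median of 7870 bp, against 0 to 4353 bp in the wild-type list, with a median of 1348 bp. The median difference, Atg5-/- minus wild type, was 6130 bp, whereas over all protein-coding genes it was 0 bp and over the 16415 genes with coverage in either list it was −50 bp. A gene was called longer when it had at least 500 bp and at least 2 times the covered length of the other list. By this rule 6 of 7 genes were longer in the Atg5-/- list, against a background of 5.97% of genes, and 0 of 7 were longer in the wild-type list, against 4.12%. Cd84 was the gene that did not pass.

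**Figure D1:**
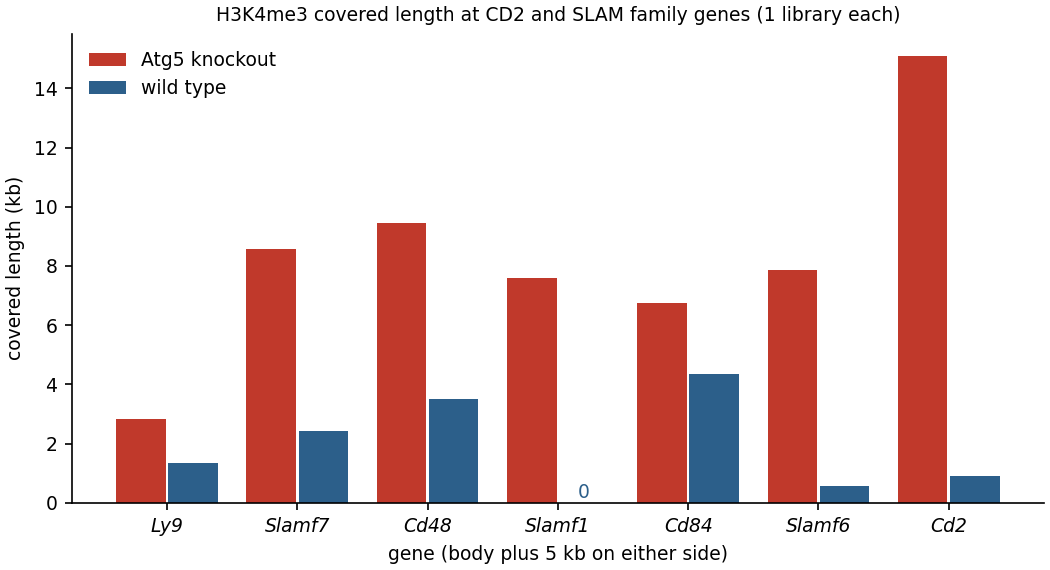
Covered length in kb (vertical axis, from 0) at each of the 7 genes, for the Atg5-/- library (left bars) and the wild-type library (right bars), with 1 library each and so no error bars. Every left bar is higher than its right neighbour, with the widest gap at Cd2 (15090 bp against 913 bp) and the closest pair by ratio at Cd84 (6744 bp against 4353 bp).

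The presence of a region separated the genotypes less. A region lay in the window of 7 of 7 genes in the Atg5-/- list and 6 of 7 in the wild-type list, with backgrounds of 72.3% and 72.8% of all genes, so the count for the wild type was near what the other genes showed. A region within 1 kb of the 5′ end was called at 7 of 7 genes in the Atg5-/- list (background 62%) and 5 of 7 in the wild-type list (background 60.5%). For Cd2 and Ly9 the end used was the one with more coverage summed over these same lists, so for these genes the count is a description only. At Cd2 this took the end of lower coordinate, with 4553 bp within 2.5 kb in the Atg5-/- list and 0 bp in the wild-type list. The higher end had 3455 bp and 641 bp, so the choice went against a wild-type region at Cd2. With the higher end of Cd2 the wild-type count was 6 of 7. With the 20000 strongest regions kept in each list, 7 of 7 genes kept a region in the Atg5-/- list (62.6% of all genes) and 2 of 7 in the wild-type list (60.3% of all genes). Of the 23 Atg5-/- regions, 7 overlapped a wild-type region, compared with 76.0% of the whole list. Of the 10 wild-type regions, 9 overlapped an Atg5-/- region, compared with 73.3% of the whole list. The Atg5-/- regions that overlapped had a median fold of 24.2 and those that did not had a median fold of 5.80, where the fold is the authors' own value for a region, its summit reads over the local background.

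Cd2, the T cell adhesion receptor (chromosome 3, 101275908 to 101287939), had the longest Atg5-/- coverage of the family. It had 15090 bp covered in the Atg5-/- list and 913 bp in the wild-type list, a ratio of 16.53. Atg5-/- regions took up 68.5% of its window and wild-type regions 4.14%. Its main Atg5-/- region ran from 101279501 to 101288335, which is 8835 bp and wider than 99.6% of the regions in that list. The same stretch held a wild-type region of 568 bp, wider than 23.5% of its list. A further Atg5-/- region of 4553 bp lay across the end of lower coordinate, where the wild-type list had none. The third Atg5-/- region, of 1702 bp, lay beyond the end of higher coordinate, reached into the lncRNA gene Gm32803 and met a wild-type region of 345 bp.

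The RefSeq promoter table has no entry for Cd2 or Ly9, so their strand was not read, and both ends of Cd2 are given. Within 2.5 kb of the end of lower coordinate, Cd2 had 4553 bp in the Atg5-/- list and 0 bp in the wild-type list. Within 2.5 kb of the end of higher coordinate it had 3455 bp in the Atg5-/- list and 641 bp in the wild-type list. The difference had the same direction at either end.

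**Figure D2:**
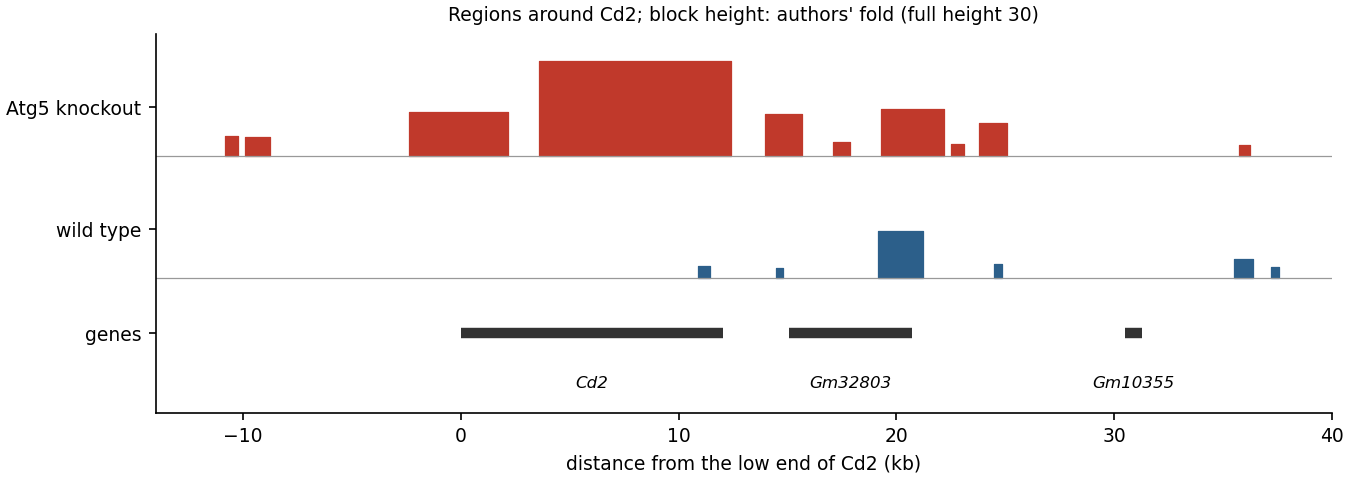
Regions around Cd2 in the Atg5-/- list (upper track) and the wild-type list (lower track), against the distance in kb from the gene's end of lower coordinate, with block height giving the authors' fold within each library (not scaled between them). At Cd2 the Atg5-/- list has blocks of 4553 and 8835 bp where the wild-type list has 568 bp, while the tallest block at Gm32803 spans 2883 bp in the Atg5-/- list and 2105 bp in the wild-type list.

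Cd48, which encodes the ligand of CD2 (chromosome 1, 171681245 to 171705258), was covered in both lists. It had 9445 bp in the Atg5-/- list and 3495 bp in the wild-type list, a ratio of 2.70. The wild-type value was 1 region across the 5′ end, wider than 93.8% of its list. That region lay wholly inside an Atg5-/- region of 7442 bp, wider than 99.3% of the Atg5-/- list. The Atg5-/- list held 3 further regions at Cd48 with folds from 4.42 to 5.80, of which 2 lay before the gene and 1 inside it, and none met a wild-type region. Receptor and ligand thus both passed the 2-fold rule, with ratios of 16.53 for Cd2 and 2.70 for Cd48.

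Slamf1, the gene of SLAM or CD150 (chromosome 1, 171767131 to 171801184), had no region in its wild-type window. In the Atg5-/- list it had 5 regions and 7609 bp covered. The strongest, of 2546 bp, had its summit 163 bp after the annotated 5′ end and a fold of 23.77. The other 4 had folds between 4.73 and 5.80 and lay before the gene (1 region) and inside it (3 regions, with summits 4775, 15809 and 21356 bp after the 5′ end). The wild-type list holds no region with fewer than 10 reads at its summit on the chromosomes kept. The mark was therefore not detectable at Slamf1 in that list, which does not show that it was absent.

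Slamf6, the gene of Ly108 (chromosome 1, 171917458 to 171948958), came close to that pattern. It had 7870 bp in the Atg5-/- list and 576 bp in the wild-type list, a ratio of 13.66. The main Atg5-/- region spanned 5921 bp and had a fold of 29.85, higher than 84.1% of its list and the highest fold among the 7 genes. The only wild-type region had a fold of 3.91, higher than 14.9% of its list. Both regions had their summits close together, 370 bp after the 5′ end in the Atg5-/- list and 334 bp after it in the wild-type list. The lncRNA gene Gm37065 overlaps the 5′ end of Slamf6, and its signal cannot be told apart from that of Slamf6.

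Slamf7, the gene of CRACC, a receptor of natural killer and activated T cells (chromosome 1, 171632403 to 171653037), had 8564 bp in the Atg5-/- list and 2434 bp in the wild-type list, a ratio of 3.52. Atg5-/- regions took up 28.0% of its window and wild-type regions 7.95%. The region at its 5′ end, read on the minus strand, was 4064 bp in the Atg5-/- list, and the wild-type list had regions of 1055 and 1379 bp inside it. The other 4 Atg5-/- regions lay further along, with summits from 4831 to 20240 bp after the 5′ end. None of these met a wild-type region. The 2 most distant lay past the end of lower coordinate, which is the 3′ end.

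Ly9, the gene of CD229 (chromosome 1, 171588613 to 171607410), had the shortest Atg5-/- coverage. It had 1 region of 2816 bp in the Atg5-/- list and 1 region of 1348 bp in the wild-type list, a ratio of 2.09, just past the 2-fold rule. Both lay across the end of higher coordinate with summits 39 bp apart. The Atg5-/- summit held 86 reads, in the range of the other genes of that list, and Ly9 was the only gene of the 7 with a single Atg5-/- region.

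Cd84, the gene of a receptor shared by B cells, myeloid cells, platelets and T cells (chromosome 1, 171839697 to 171890718), had the longest wild-type coverage of the family. It had 6744 bp in the Atg5-/- list and 4353 bp in the wild-type list, a ratio of 1.55. The wild-type region of 3607 bp was wider than 94.3% of its list, and its fold of 7.82 was higher than 50.1% of that list. The Atg5-/- region of 6246 bp was wider than 98.6% of its list, with a fold of 26.26 that was higher than 81.3%. The summits lay 1089 bp after the 5′ end in the Atg5-/- list and 1163 bp after it in the wild-type list, further inside the gene than at the other 4 genes with a known strand. Cd84 also held the only wild-type region of the family that met no Atg5-/- region, which had 408 bp and a fold of 3.38.

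The order of wild-type covered length was Cd84, Cd48, Slamf7, Ly9, Cd2, Slamf6 and Slamf1. The order of the ratio was Cd2, Slamf6, Slamf7, Cd48, Ly9 and Cd84, with no ratio for Slamf1. The first 2 ratios rest on weak wild-type regions, with 13 and 11 summit reads at Cd2 and 16 at Slamf6, where the lowest in that list was 10. With a minimum −log10 q of 5 the wild-type coverage of Cd2 was 0 bp. With a minimum of 10 that of Slamf6 was 0 bp, so these ratios could not then be given. With 1 library per genotype, it cannot be said which neighbours in these orders differ beyond replicate spread. Coverage of the window also depends on its length, from 22032 bp at Cd2 to 61022 bp at Cd84. As a share of the window, the Atg5-/- values ran from 9.8% at Ly9 to 68.5% at Cd2 and the wild-type values from 0% at Slamf1 to 10.28% at Cd48.

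The reads at each summit were recovered from the authors' fold and −log10 p, and give the depth behind these regions. The commonest local background recovered at the summits of called regions was 2.62 reads in the Atg5-/- list and 2.85 in the wild-type list. At the strongest summit of each gene, the Atg5-/- library had 107 reads at Slamf6 (exact 95% Poisson interval 87.7 to 129.3), 98 at Cd2 (79.6 to 119.4) and 96 at Cd48 (77.8 to 117.2). The wild-type library had 16 reads at Slamf6 (9.1 to 26.0), 13 at Cd2 (6.9 to 22.2) and 45 at Cd48 (32.8 to 60.2). The intervals cover counting error only and the reads were not scaled between the libraries. Cd84 had 94 reads in the Atg5-/- library and 31 in the wild-type library. Ly9 had 86 reads in the Atg5-/- library and 45 in the wild-type library, and Slamf1 had 85 in the Atg5-/- library. Slamf7 had the fewest Atg5-/- reads, with 65 (50.2 to 82.8), against 22 (13.8 to 33.3) in the wild type. The Atg5-/- summits thus ran from 65 to 107 reads, while the wild-type summits ran from 13 to 45 reads at the 6 genes where a region was called.

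**Figure D3:**
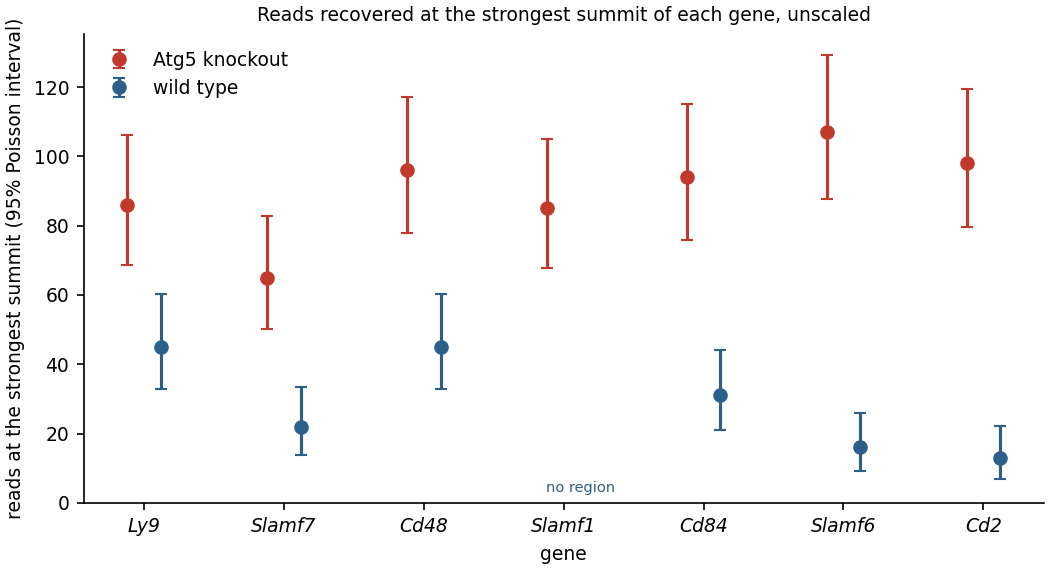
Reads at the strongest summit of each gene (vertical axis, unscaled) in the Atg5-/- library (left points) and the wild-type library (right points), with bars for the exact 95% Poisson interval of 1 library. The 7 left points lie between 65 and 107 reads and the 6 right points between 13 and 45, and Slamf1 has no wild-type region.

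Apart from Cd2, the genes sit side by side on chromosome 1. From 5 kb before Ly9 to 5 kb after Slamf6 the interval spans 370346 bp (171583613 to 171953958) and takes in an end of Cd244a. Within it, 23 Atg5-/- regions covered 46405 bp, or 12.53%, and 9 wild-type regions covered 13478 bp, or 3.64%. The windows of the 6 receptor genes held 92.8% of the Atg5-/- coverage and 90.6% of the wild-type coverage, and no 2 windows overlapped. The coding gene Tma7-ps, between Cd48 and Slamf1, had 0 bp in either list. Coverage lay in separate blocks at each receptor gene, and between the windows of Cd48 and Slamf1 neither list had a region.

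**Figure D4:**
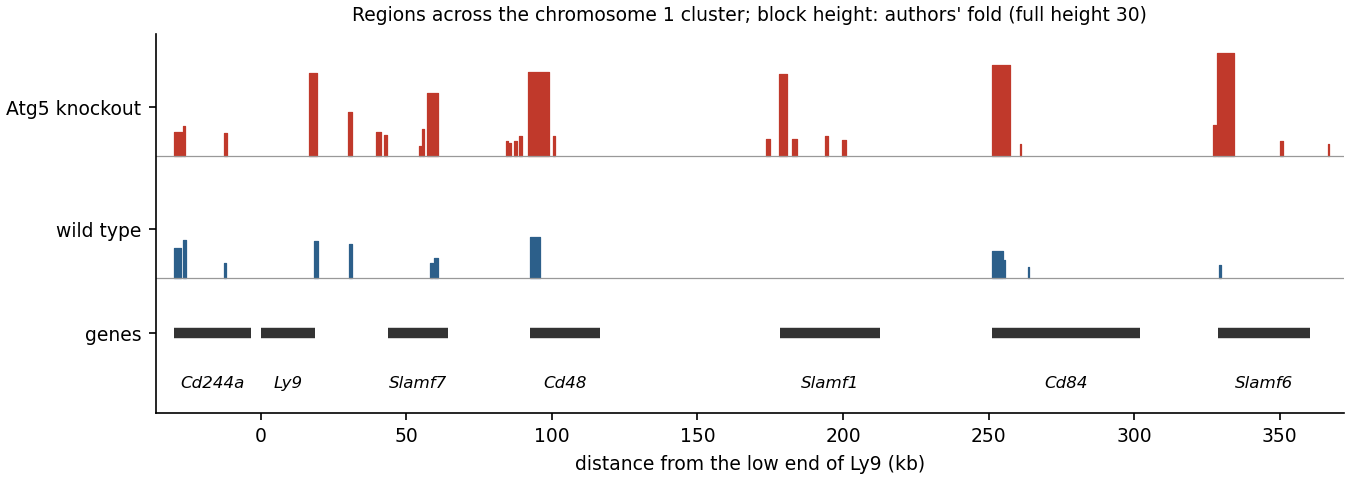
Regions across the chromosome 1 cluster in the Atg5-/- list (upper track) and the wild-type list (lower track), against the distance in kb from the lower end of Ly9, with block height giving the authors' fold within each library (not scaled between them). Blocks at Cd244a and between Ly9 and Slamf7 appear in both tracks. The tallest blocks at Slamf1 and Slamf6 span 2546 and 5921 bp in the Atg5-/- track, where the wild-type track has none at Slamf1 and 576 bp at Slamf6.

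Some regions in the same neighbourhoods were of like length in both lists. Cd244a, the gene of the CD48 receptor 2B4 of natural killer, myeloid and some CD8 T cells, adjoins Ly9. It had 4032 bp in the Atg5-/- list and 4374 bp in the wild-type list, a ratio of 0.92, with 3 regions in each. Its widest region was 2450 bp with 24 reads at the summit (15.4 to 35.7) in the Atg5-/- list and 2628 bp with 42 reads (30.3 to 56.8) in the wild-type list. Between Ly9 and Slamf7, outside all windows, a region of 1288 bp in the Atg5-/- list matched a region of 1272 bp in the wild-type list, with 45 reads (32.8 to 60.2) at the summit in each. Next to Cd2, the lncRNA gene Gm32803 held a region of 2883 bp with 48 reads (35.4 to 63.6) in the Atg5-/- list and one of 2105 bp with 51 reads (38 to 67.1) in the wild-type list. Over Gm32803 as a whole with its flanks, which run into the window of Cd2, coverage was 9582 bp in the Atg5-/- list and 3415 bp in the wild-type list. The regions outside Cd244a were chosen after their values were seen.

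The remaining family and signalling genes differed less as a group. Of 15 genes, 4 passed the 2-fold rule in the Atg5-/- list and 0 in the wild-type list, with backgrounds of 5.97% and 4.12%. The median difference of the 15 genes was 1668 bp, against 0 bp over all genes. Sh2d1a, which encodes the adaptor SAP, had 7808 bp in the Atg5-/- list and 0 bp in the wild-type list. The related adaptor genes Sh2d1b1 and Sh2d1b2 had 0 and 1129 bp in the Atg5-/- list and 0 and 2020 bp in the wild-type list. Fyn, the kinase that SAP binds, had 23200 bp in the Atg5-/- list and 9944 bp in the wild-type list. Lck, the kinase that acts with CD2 and the T cell receptor, had 19499 bp in the Atg5-/- list and 4719 bp in the wild-type list. Prkcq, protein kinase C theta of T cells, had 38521 bp in the Atg5-/- list and 3997 bp in the wild-type list. The markers of T cells also had longer coverage in the Atg5-/- list (136893 bp against 19762 bp in sum), and the part of that difference in these 15 genes was not tested.

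The other members of the list had ratios under 2 where both lists had coverage. Of the phosphatase genes, Inpp5d (SHIP-1) had 11270 bp in the Atg5-/- list and 7173 bp in the wild-type list. Ptpn6 (SHP-1) had 11900 bp in the Atg5-/- list and 6878 bp in the wild-type list. Ptpn11 (SHP-2) was nearly level, with 1994 bp in the Atg5-/- list and 2069 bp in the wild-type list. Of the genes whose proteins bind the CD2 tail, Pstpip1 had 14898 bp in the Atg5-/- list and 8410 bp in the wild-type list. Cd2bp2 had 3958 bp in the Atg5-/- list and 2290 bp in the wild-type list, and Cd2ap had 3265 bp in the Atg5-/- list and 3686 bp in the wild-type list. Slamf8 and Slamf9, relatives found mainly on myeloid cells, had 830 and 1812 bp in the Atg5-/- list and 877 and 1239 bp in the wild-type list. Across this list, coverage was longer in the Atg5-/- list for 9 genes and shorter for 5.

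Set beside other lists, the receptor genes were closer to the CD3 chains than to the macrophage markers. The 4 CD3 chain genes passed the 2-fold rule in the Atg5-/- list (4 of 4), with a median difference of 8435.5 bp, compared with 6130 bp for the receptor genes. Cd3d and Cd3g share part of their windows, so their values are not independent. Of the 10 macrophage and granulocyte markers, 0 passed in the Atg5-/- list and 2 in the wild-type list, with a median difference of −510.5 bp. Of the 8 B cell markers, 3 passed in the Atg5-/- list and 0 in the wild-type list (median difference 1095.5 bp). Natural killer markers gave 2 of 6 and 0 of 6 (78 bp), and epithelial and tumour markers 2 of 6 and 0 of 6 (635.5 bp). Endothelial and fibroblast markers gave 0 of 6 and 2 of 6 (−2078 bp). The shares over all genes were 5.97% and 4.12%. No test of these differences was possible.

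**Figure D5:**
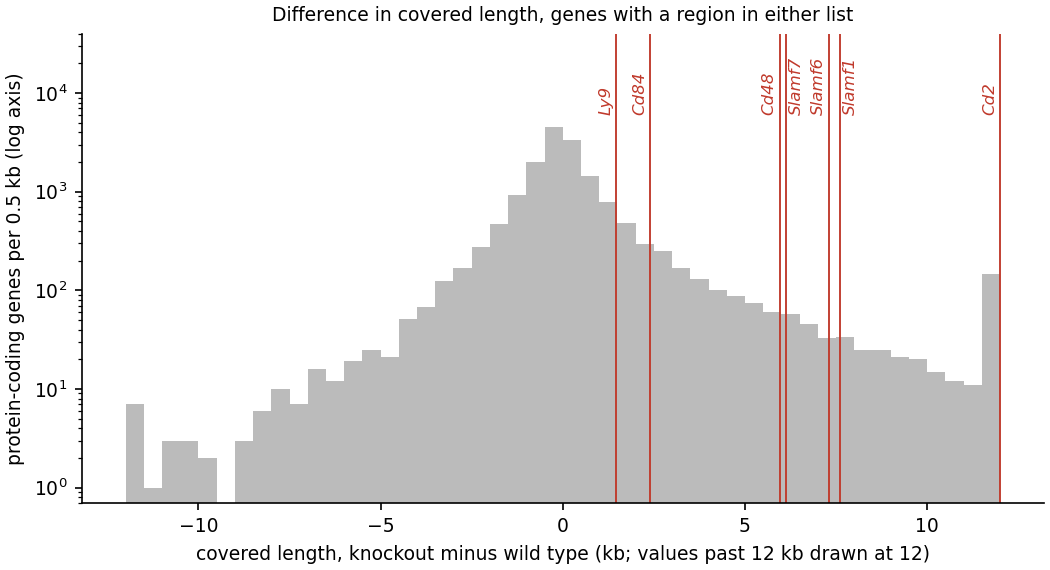
Number of protein-coding genes (log axis) by the difference in covered length, Atg5-/- minus wild type, in bins of 0.5 kb, for the 16415 genes with coverage in either list, with values past 12 kb drawn at 12. The vertical lines mark the 7 receptor genes, which lie between 1468 bp (Ly9) and 14177 bp (Cd2), to the right of the median of −50 bp.

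The promoter sequences of Slamf1, Slamf6 and Cd48 are shown because the first 2 were covered in the Atg5-/- list alone, while that of Cd48 was covered in both lists. The Atg5-/- regions covered 300 of 300 bases at each of the 3. The wild-type regions covered 0 bases at Slamf1, 0 at Slamf6 and 300 at Cd48. Sequences are from RefSeq on GRCm38.p6, from 250 bases before to 50 after the 5′ end, on the plus strand, and capitals mark GGAA on either strand, the core bound by ETS factors. Slamf6 has no such match and so no capitals.
Slamf1 (chr1:171766882-171767181): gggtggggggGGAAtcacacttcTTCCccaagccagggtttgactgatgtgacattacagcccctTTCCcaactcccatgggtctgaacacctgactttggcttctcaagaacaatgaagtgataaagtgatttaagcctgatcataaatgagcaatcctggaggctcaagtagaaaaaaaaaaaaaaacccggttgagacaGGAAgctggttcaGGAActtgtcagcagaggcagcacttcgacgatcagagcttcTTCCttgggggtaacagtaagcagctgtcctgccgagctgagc
Slamf6 (chr1:171917212-171917511): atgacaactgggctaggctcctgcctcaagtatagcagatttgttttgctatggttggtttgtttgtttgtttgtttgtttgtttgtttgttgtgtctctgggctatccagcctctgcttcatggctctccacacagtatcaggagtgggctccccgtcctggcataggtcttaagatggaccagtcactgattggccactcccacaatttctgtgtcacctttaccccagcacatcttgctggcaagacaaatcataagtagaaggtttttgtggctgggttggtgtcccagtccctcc
Cd48 (chr1:171681742-171682041): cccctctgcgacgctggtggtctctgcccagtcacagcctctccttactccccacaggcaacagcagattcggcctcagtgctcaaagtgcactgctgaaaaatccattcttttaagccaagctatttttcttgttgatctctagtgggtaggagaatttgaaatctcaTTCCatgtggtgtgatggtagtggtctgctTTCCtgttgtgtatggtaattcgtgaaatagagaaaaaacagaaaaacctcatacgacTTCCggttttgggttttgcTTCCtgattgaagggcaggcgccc

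Of the 7 genes, 5 had a promoter window in that table. The windows held from 1 CG dinucleotide at Slamf6 to 7 at Cd48, against a median of 7 over 32817 windows on the chromosomes used. Low counts were common, since 43.6% of all windows had at most 5. The count was 4 at Slamf1 and 3 at Slamf7 and Cd84. All motifs were searched on both strands, and matches of different motifs were counted independently, overlapping or not. GGAA was found in 4 of 5 windows, close to the 96% of all windows that hold it, and Slamf6 was the exception with 0 matches. TGACTCA, a sequence that AP-1 factors bind, was in 2 of 5 windows (Slamf7 and Cd84) and in 5.2% of all windows. TGTGGT, a core bound by RUNX factors, was in 2 of 5 windows (Cd48 and Cd84) and in 16.8% of all windows. TGATAA, a form of the GATA site, was found at Slamf1 alone (9.06% of all windows). CTTTGA, a core of TCF factors, was found at Cd48 alone (16% of all windows). The TATA box TATAAA was in 0 of 5 windows and 13.6% of all, and the SP1 site GGGCGG in 0 of 5 and 35.6% of all. The E-box CACGTG was likewise in 0 of 5 and 7.15% of all. The other RUNX form TGCGGT was in 0 of 5 and 6.45% of all, and the other GATA form AGATAA in 0 of 5 and 11.2% of all. A match is a description of letters and not a site. At Cd84 the Atg5-/- region covered 115 bases of the window and the wild-type region 0.

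The genes nearest the medians of the family were sought by the share of the window covered in each of the 2 libraries. The medians of the 7 genes were 19% in the Atg5-/- list and 4.68% in the wild-type list. The first is the value of Slamf6 and the second that of Ly9, and no receptor gene had both. The 5 nearest genes by Euclidean distance were Itpk1, Tlr1, Dse, Dph5 and Comp. Itpk1, which encodes an inositol phosphate kinase, had 19.2% in the Atg5-/- list and 4.84% in the wild-type list. Tlr1, a receptor for bacterial lipoproteins, had 19.3% in the Atg5-/- list and 5.02% in the wild-type list. The other 3 ran from 18.1% to 19.4% in the Atg5-/- list and from 4.88% to 5.27% in the wild-type list. This likeness is to the medians, rests on 2 values per gene and is a description only.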

How the data were processed

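Chromatin immunoprecipitation libraries for H3K4me3 from CD8+ tumour-infiltrating lymphocytes were used, 1 Atg5-/- and 1 wild type. Regions were called with MACS2 on GRCm38 (mm10), per the submitters' processing notes; its version and settings, the aligner and the filters are not stated there. The authors deposited, for each summit, a fold (a ratio over local background), a −log10 p and a −log10 q. A score that is 10 times the −log10 q was not used. Whether that background came from the same library or from the input is not stated. Folds describe, rank or filter regions within 1 list only.

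Only the assembled nuclear chromosomes were used, which left out 64 Atg5-/- and 65 wild-type regions. Gene positions came from RefSeq (GRCm38.p6, 21887 protein-coding genes). Overlap meant at least 1 bp. The 5′ end came from the RefSeq promoter table, or, where it has no entry, was the gene end with more coverage within 2.5 kb summed over both lists. Whole summit reads n were recovered within 0.001 of the −log10 p for 45835 of 45836 Atg5-/- and 48012 of 48014 wild-type regions with a −log10 p under 250, using fold = (n + 1)/(background + 1) and a Poisson p. Tools were pandas 2.3.3 and NumPy 2.4.6 under Python 3.11.15, SciPy 1.17.1 for intervals and Matplotlib 3.10.9 for plots. Coverage and read recovery were checked on simulated data. Alternatives were stricter region thresholds, other flanks and other overlap rules. With 1 library per genotype there is no test. Trac was not in the coding gene table. The genes, lists and rules were chosen with earlier results of these data known. Named genes are the 7 receptors, a list of 15 relatives and signalling genes, genes beside them, the 5 nearest by coverage and marker lists.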

Additional observations from a re-analysis of the deposited data

How the results depend on the processing

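The higher Atg5-/- coverage held its direction for each of the 7 genes in all 8 settings tried, which is 56 of 56 values. The median difference, 6130 bp, was 5950 bp with a minimum −log10 q of 5, 5538 bp with a minimum of 10, 4064 bp with 20000 regions per list, 4533 bp with 1 kb flanks, 3624 bp over the gene body alone and 7609 bp with 10 kb flanks. It did not change when regions lying mainly outside the window were dropped or when regions near other genes were left out. The difference over the chromosome 1 cluster, 32927 bp, was 31503, 26537 and 24208 bp under the first 3 of these settings. With 20000 regions per list, wild-type regions were left in the windows of 2 genes (60.3% of all genes) and at the 5′ ends of 2 genes (50.1% of all genes). Cd84 then also passed the 2-fold rule, with 6246 bp left in the Atg5-/- list and 0 bp in the wild-type list. So 7 of 7 genes passed, against 7.3% of all genes. Why the wild-type regions ranked lower was not tested. The other counts stayed within 1.5 times their main value, among them that with the higher end of Cd2, a setting added after the data were seen. No paired analysis was possible because each genotype has 1 library. Depth is unstated, and its part in the covered lengths was not tested. Regions with fewer than 10 summit reads were not called in either list.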

Other observations

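Around Cd2, the Atg5-/- list held further regions outside the window that the wild-type list lacked or had in shorter form. A pair of regions below the gene, with 621 and 1126 bp, and a more distant region of 1228 bp had no wild-type counterpart. Beyond Gm32803, a region of 1274 bp with 33 summit reads (22.7 to 46.3) in the Atg5-/- list met a wild-type region of 397 bp with 16 reads (9.1 to 26.0). Atg5-/- regions of 776 and 609 bp, with 14 and 12 reads, also met no wild-type region. The order turned round near the pseudogene Gm10355. There the Atg5-/- list had a region of 489 bp with 11 reads (5.5 to 19.7) and the wild-type list one of 869 bp with 20 reads (12.2 to 30.9). Just beyond it, a wild-type region of 357 bp with 12 reads (6.2 to 21.0) had no Atg5-/- counterpart.

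Past Slamf6, the Atg5-/- list held 5 weak regions of 416 to 1155 bp within 50 kb of the window of Slamf6, with 12 to 29 summit reads, and the wild-type list held none there. Before Cd48, regions of 675 and 624 bp in the Atg5-/- list, with 15 and 13 reads, likewise had no wild-type counterpart. These regions lie outside the windows of the receptor genes, were chosen after their values were seen, and were not assigned to any gene.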
